A study of Mus musculus with 40 samples.

Results

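The enzymes that turn arachidonic acid into prostaglandins, thromboxane and leukotrienes were followed in CD11b+ cells sorted from naive and glioma-bearing mouse brains. The set held 10 genes of the 54513 rows in each expression table: Ptgs1 and Ptgs2, the cyclooxygenases; Ptges and Ptges3, linked to prostaglandin E2; Hpgds, the hematopoietic prostaglandin D2 synthase; Tbxas1, the thromboxane synthase; Hpgd, which inactivates prostaglandins; and Alox5, Alox5ap and Ltc4s of the leukotriene branch. All 10 were found by name in all 3 tables. They were chosen by name and function, with earlier results of these data known.

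Prostaglandins and leukotrienes are local lipid mediators. Phospholipases free arachidonic acid from membranes, cyclooxygenases convert it to prostaglandin H2, and terminal synthases make prostaglandin E2, prostaglandin D2 or thromboxane from it. In the other branch, 5-lipoxygenase (Alox5), presented with its substrate by the membrane protein FLAP (Alox5ap), makes leukotriene A4, which leukotriene C4 synthase (Ltc4s) conjugates to glutathione. Cyclooxygenase-1 (Ptgs1) is abundant in microglia, whereas cyclooxygenase-2 (Ptgs2) is inducible in activated myeloid cells.

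In all, 3 experiments were covered by 35 expression profiles out of 40 labelled samples. Per the study's methods, all animals were male and aged 10 to 12 weeks. In the first, C57BL/6 mice were naive or carried GL261 gliomas (a mouse glioma line expressing tdTomato and luciferase) for 21 days post-implantation (DPI) and received water (vehicle), 7aaRGD or 7aaRAE through osmotic pumps, with 3 samples a group and 2 animals pooled in each sample. 7aaRGD is a peptide carrying the integrin-binding RGD motif, and 7aaRAE is the control peptide in which the motif was replaced. In the second, at 28 DPI, single animals received vehicle (n = 4), 7aaRGD (n = 4), anti-PD-1 antibody (n = 3) or both (combination, n = 3), and per the study's methods the animals without anti-PD-1 received IgG. The labels of this experiment name nude mice and no tumor line, whereas the study's methods describe GL261 tumors in C57BL/6 mice. The study's discussion adds that the joint effect of checkpoint inhibitors and 7aaRGD was not testable in immunodeficient animals. By the study's text the animals were therefore C57BL/6, and the sources do not explain the differing labels. The titles of the anti-PD-1 samples name that antibody, by which they were grouped, whereas the treatment field of samples 2 and 3 reads Anti-PD-2 and Anti-PD-3. In the third, athymic nude (Foxn1nu) mice, which lack a normal thymus, carried U87-MG gliomas, a human line, for 21 days with vehicle, 7aaRGD or 7aaRAE (n = 3 each, 2 animals pooled in each sample). One anti-PD-1 sample, 1 combination sample and the 3 naive nude samples were not analysed here.

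Expression was read as RPKM, the read count divided by transcript length and library size, which allows levels of different genes to be compared within a sample. Differences between groups were tested with limma on log2(RPKM + 1), fitted to every protein-coding gene whose mean reached 1 RPKM, with Benjamini-Hochberg adjustment over all genes fitted. A fold change on this scale understates the change of genes with low values. The sequencing depth behind the values is unknown. All 5 myeloid genes used to check the sort were above 1 RPKM in every group. In bulk samples fewer cells of a type and less RNA per cell cannot be told apart.

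The genes lie at chr2:36230426-36252272 (Ptgs1), chr1:150100031-150108227 (Ptgs2), chr2:30889471-30929863 (Ptges), chr10:128058954-128077272 (Ptges3), chr6:65117293-65144908 (Hpgds), chr6:38875404-39084585 (Tbxas1), chr8:56294585-56321043 (Hpgd), chr6:116410077-116461178 (Alox5), chr5:149264767-149288153 (Alox5ap) and chr11:50236461-50238616 (Ltc4s) in mm10 with the GENCODE vM21 annotation. Promoters were examined for the 3 genes on which the results turned, and are shown from RefSeq (build GRCm38.p6, 250 bases before to 50 bases after the annotated start, on the strand of the gene). Of the 10 genes, 9 had a promoter in this table. The windows are chr1:150099781-150100080 on the plus strand for Ptgs2, chr11:50238483-50238782 on the minus strand for Ltc4s and chr6:65144681-65144980 on the minus strand for Hpgds. Capitals mark matches on either strand to the CRE core CGTCA, the C/EBP palindrome TTGCGCAA, the E-box CACGTG, the PU.1 core GAGGAA and the TATA box TATAAA, letters chosen with the sequences in view.
Ptgs2: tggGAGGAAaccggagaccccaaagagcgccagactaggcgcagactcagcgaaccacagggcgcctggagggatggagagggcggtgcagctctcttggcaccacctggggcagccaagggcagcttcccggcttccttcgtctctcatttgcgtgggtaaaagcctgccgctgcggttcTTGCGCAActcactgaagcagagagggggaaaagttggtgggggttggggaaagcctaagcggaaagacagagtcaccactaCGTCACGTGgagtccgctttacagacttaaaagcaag
Ltc4s: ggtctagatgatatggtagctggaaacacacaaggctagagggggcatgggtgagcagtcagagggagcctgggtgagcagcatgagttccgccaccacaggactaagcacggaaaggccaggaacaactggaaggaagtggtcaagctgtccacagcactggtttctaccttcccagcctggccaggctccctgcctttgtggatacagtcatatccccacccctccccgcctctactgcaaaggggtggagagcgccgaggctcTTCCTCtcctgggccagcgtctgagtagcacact
Hpgds: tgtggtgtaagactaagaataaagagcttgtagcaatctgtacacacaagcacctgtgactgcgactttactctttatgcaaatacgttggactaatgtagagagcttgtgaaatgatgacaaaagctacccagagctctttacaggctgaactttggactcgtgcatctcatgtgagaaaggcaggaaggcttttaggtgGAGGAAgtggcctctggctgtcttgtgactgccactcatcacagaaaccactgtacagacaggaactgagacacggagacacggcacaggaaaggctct

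The Ptgs2 window held the PU.1 core at position -247, the C/EBP palindrome at -69 and a CRE core at 14 that shares bases with an E-box at 17. The C/EBP palindrome was present in 50 of 27025 promoters of the same length (0.185%), the CRE core in 21.0% and the E-box in 7.24%. Neither the Ltc4s nor the Hpgds window matched any of these 3 motifs. Each of the 2 held 1 match to the PU.1 core, at 17 and -49 respectively, and 8 of the 9 members with a promoter held one, against 28.3% of all promoters. These matches are descriptions of the letters and do not show binding. As the letters were chosen with the sequences in view, the shares do not test for enrichment.

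In naive brain, CD11b+ cells held Ptgs1 as the highest member and nearly no Ptgs2. The order of mean levels was Ptgs1 (293 RPKM), Hpgd (229), Alox5ap (172), Ltc4s (168), Hpgds (39.6), Ptges3 (32.2), Tbxas1 (28.1), Alox5 (14.7), Ptgs2 (1.14) and Ptges (0.0193). Neighbours in this order were apart in every sample, except that the samples of Alox5ap and Ltc4s overlapped, as did those of Ptges3 and Tbxas1. In the vehicle group of GL261 tumors at 21 DPI the order was Alox5ap (205 RPKM), Ptgs1 (60.4), Ptgs2 (30.7), Ptges3 (29.7), Ltc4s (18.3), Tbxas1 (16.4), Hpgd (13.9), Hpgds (7.00), Alox5 (2.18) and Ptges (0.490). There, Ptgs2 overlapped with Ptges3, and Ltc4s, Tbxas1 and Hpgd formed an overlapping run. Alox5ap was thus the highest member in tumor-bearing samples of all 3 tables by group mean, with Ptgs1 second.

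**Figure D1:**
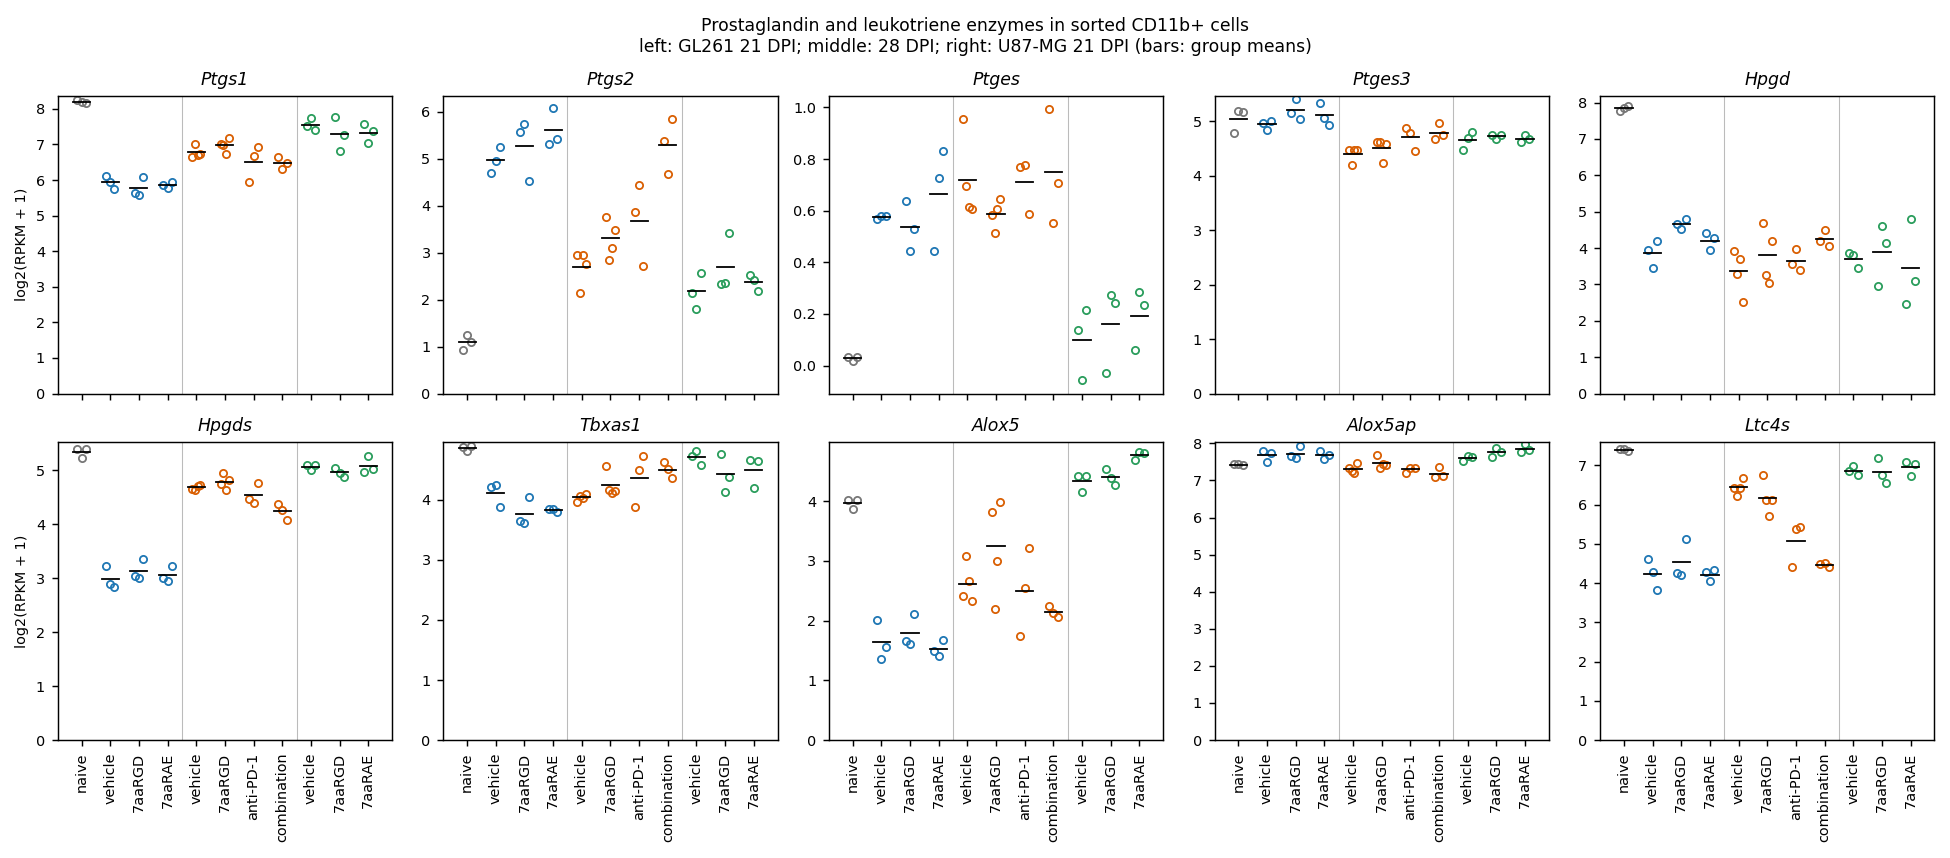
Level of each of the 10 enzymes in every sample as log2(RPKM + 1), by group (horizontal axis), with the group mean as a bar; naive samples are grey, GL261 21 DPI blue, 28 DPI orange and U87-MG green. The naive samples were highest for Ptgs1, Hpgd and Ltc4s and lowest for Ptgs2, the combination samples stood above the other 28 DPI groups for Ptgs2, and the vertical scale differs between panels.

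The comparison of naive with vehicle samples at 21 DPI asked how the enzymes differ between microglia-rich normal brain and glioma. Hpgd, Ltc4s, Hpgds, Alox5, Ptgs1 and Tbxas1 were lower in glioma, and Ptgs2 was higher. Of the 9 members tested, 6 were higher and 2 lower in naive samples, while 82.8% of all 9731 genes tested passed the same threshold (48.2% higher and 34.6% lower in naive), so that the count is near the background. Groups did not overlap for 85.4% of genes. The median log2 fold change was 2.27 over the members tested and 0.14 over all genes, and median-of-ratios scaling shifted the latter by -0.12.

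Ptgs1 was 301, 289 and 288 RPKM in the naive samples and 68.6, 60.1 and 52.5 in the vehicle samples. The groups did not overlap, and the naive mean was 4.84-fold higher (log2 fold change 2.27 ± 0.09 SE, limma adjusted p = 1.74e-07). Ptgs2 moved the other way, with 0.909, 1.39 and 1.13 RPKM in naive and 25.0, 30.1 and 37.0 in vehicle samples. Its mean was 26.9-fold higher in vehicle, and the log2 fold change of naive against vehicle was -3.88 ± 0.14 (adjusted p = 9.85e-08). Within each sample, Ptgs2 therefore amounted to 0.392% ± 0.090 of the Ptgs1 level in naive brain and to 52.3% ± 17.2 in the vehicle group (SD, n = 3 each).

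The terminal prostaglandin enzymes were divided. Hpgds was 41.2, 36.8 and 41.0 RPKM in naive and 8.33, 6.48 and 6.17 in vehicle samples, 5.67-fold higher in naive (log2 fold change 2.35 ± 0.10, limma adjusted p = 2.38e-07). Tbxas1 differed less, with a mean of 28.1 against 16.4 RPKM and no overlap (0.75 ± 0.10, adjusted p = 0.000134). Ptges3, the cytosolic prostaglandin E synthase that also serves as the Hsp90 co-chaperone p23, was 26.4, 35.4 and 34.8 in naive and 30.3, 27.8 and 31.1 in vehicle samples, and the groups overlapped (0.10 ± 0.11, adjusted p = 0.421). Ptges, the inducible microsomal prostaglandin E synthase, was between 0.0116 and 0.0238 RPKM in naive and between 0.484 and 0.494 in vehicle samples. It stayed under the filter in every table and was not tested. Its highest value in any sample was 0.991 RPKM.

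Hpgd, the 15-hydroxyprostaglandin dehydrogenase, had the largest fold difference of the members that were higher in naive brain. It was 217, 231 and 241 RPKM in naive and 14.4, 10.04 and 17.1 in vehicle samples, a 16.5-fold difference (log2 fold change 3.98 ± 0.16, limma adjusted p = 1.63e-07). In the leukotriene branch, Ltc4s was 170, 170 and 164 RPKM in naive and 23.3, 18.4 and 13.1 in vehicle samples (3.17 ± 0.17, adjusted p = 6.99e-07). Alox5 was 15.3, 13.6 and 15.2 in naive and 3.04, 1.57 and 1.95 in vehicle samples (2.33 ± 0.15, adjusted p = 2.02e-06). Alox5ap did not follow these 2 enzymes. It was 172, 174 and 169 RPKM in naive and 221, 181 and 213 in vehicle samples, slightly lower in naive (-0.25 ± 0.08, adjusted p = 0.0202), and with 1 sample left out the adjusted p lay between 0.000861 and 0.0647, past the threshold in 1 of 6 fits (without vehicle sample 2).

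Markers of cell types moved with this comparison. The summed level of 8 microglia markers was 13976 to 14326 RPKM in naive and 1185 to 1720 in vehicle samples, and that of 8 monocyte and macrophage markers was 45.0 to 60.4 and 1877 to 3587, respectively. In each sample, Ltc4s amounted to 11.9 ± 0.14 RPKM per 1000 RPKM of summed microglia markers in naive and to 12.3 ± 4.04 in vehicle samples (SD, n = 3). The same ratio was 20.7 ± 0.29 and 40.6 ± 9.86 for Ptgs1, 16.2 ± 1.06 and 9.0 ± 0.98 for Hpgd, 1.04 ± 0.06 and 1.41 ± 0.32 for Alox5, 2.80 ± 0.17 and 4.65 ± 0.92 for Hpgds, 1.99 ± 0.07 and 11.1 ± 3.63 for Tbxas1, and 12.1 ± 0.17 and 136 ± 14.6 for Alox5ap. The sum of 6 platelet and megakaryocyte markers was 56.6 to 64.1 RPKM in naive and 8.17 to 28.6 in vehicle samples, with Ppbp and Gp1ba under 0.1 RPKM by mean in both groups. The sum of 8 neutrophil markers was 403 to 504 RPKM in naive and 133 to 268 in vehicle samples, with Ly6g under 0.1 RPKM by mean in vehicle. The part of cell composition in the differences was not tested.

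**Figure D2:**
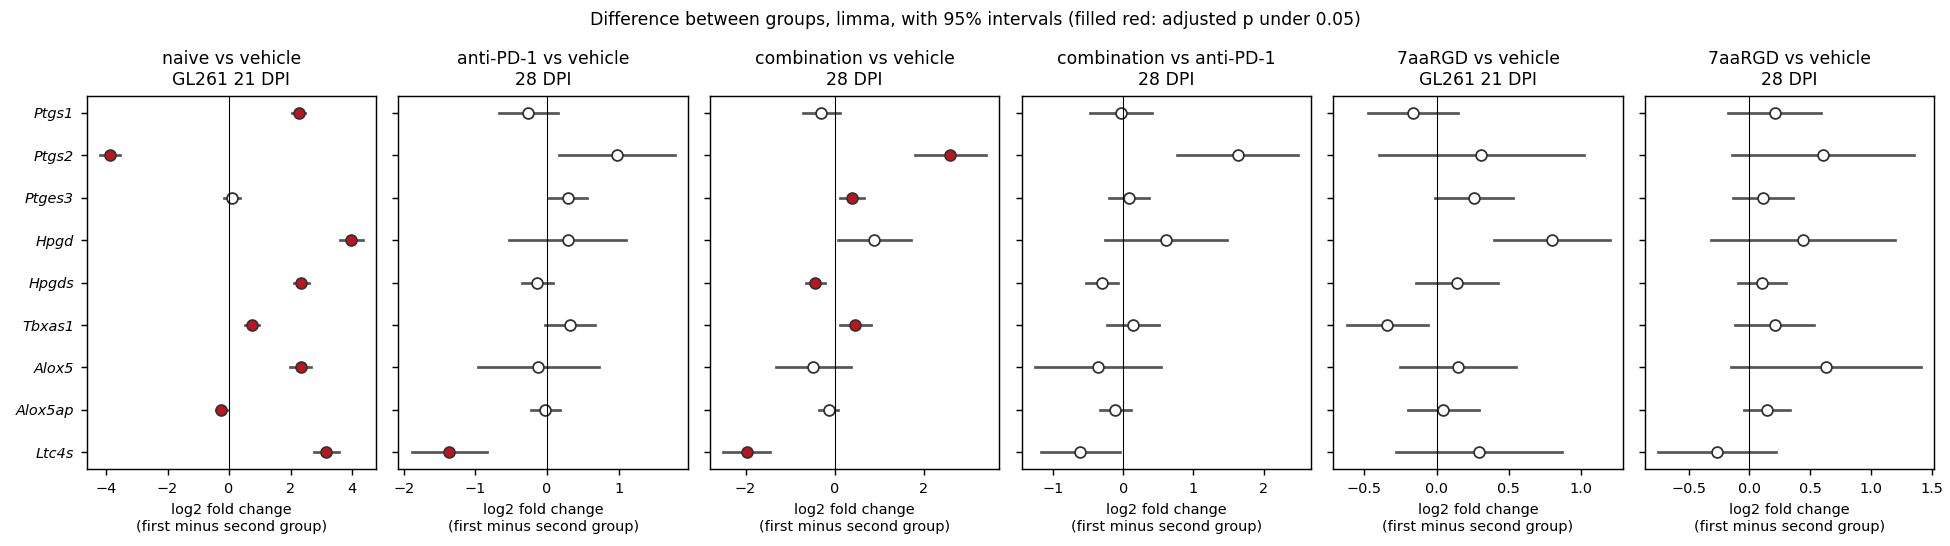
Log2 fold change (first minus second group, horizontal axis, with a scale of its own in each panel) of the 9 enzymes tested, with 95% intervals, in 6 comparisons; red points passed an adjusted p of 0.05. Naive against vehicle held 8 red points, anti-PD-1 against vehicle 1 (Ltc4s) and combination against vehicle 5, and none was red in either 7aaRGD comparison or in combination against anti-PD-1.

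At 28 DPI the question was how the enzymes respond to 7aaRGD, to anti-PD-1 and to both. Ptgs2 was highest and Ltc4s lowest by mean in the combination group, and these 2 genes carried the largest differences. The comparisons against vehicle share the same 4 vehicle samples, and those with the combination group share its 3 samples, so they are not independent of one another.

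Ptgs2 was 6.77, 3.38, 6.73 and 5.72 RPKM in vehicle, 12.6, 6.18, 7.60 and 10.2 in 7aaRGD, 13.6, 20.6 and 5.55 in anti-PD-1 and 40.8, 24.6 and 56.2 in combination samples. All combination samples were above every other sample of the experiment, and 1 of the anti-PD-1 samples was within the vehicle range. The combination mean was 7.17-fold the vehicle mean (log2 fold change 2.60 ± 0.37, limma adjusted p = 0.000133) and 4.43-fold the 7aaRGD mean (2.00 ± 0.37, adjusted p = 0.00134). Against anti-PD-1 the combination mean was 3.06-fold higher, with no overlap, and the difference missed the threshold (1.63 ± 0.40, adjusted p = 0.0901). In that comparison, 0.0411% of 9740 genes passed and 21.5% did not overlap between the groups, and since the study picked Ptgs2 from these samples for the same contrast, its value there is not independent evidence. The differences of anti-PD-1 (0.97 ± 0.37, adjusted p = 0.0767) and 7aaRGD (0.60 ± 0.35, adjusted p = 0.435) from vehicle did not pass. The test of whether the combination departed from the sum of both single treatments gave 1.02 ± 0.53 (adjusted p = 0.623), a test in which 0 of 9740 genes passed and 794 had an unadjusted p under 0.05.

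Ptgs1 showed no such pattern. It was 99.4, 129, 103 and 105 RPKM in vehicle, 129, 126, 105 and 144 in 7aaRGD, 60.0, 101 and 121 in anti-PD-1 and 99.1, 78.8 and 87.8 in combination samples. All 3 combination samples were below the lowest vehicle sample, the nearest at 99.1 against 99.4, and the difference did not pass (log2 fold change -0.30 ± 0.19, limma adjusted p = 0.225). Against 7aaRGD the groups did not overlap either, and the difference missed the threshold (-0.50 ± 0.19, adjusted p = 0.0540), which it passed when only these groups were fitted (adjusted p = 0.0159) and without 7aaRGD sample 3 (adjusted p = 0.0389). Relative to Ptgs1 in the same sample, Ptgs2 was 5.36% ± 1.91 in vehicle (SD, n = 4), 7.26% ± 2.00 in 7aaRGD (n = 4), 15.9% ± 9.88 in anti-PD-1 (n = 3) and 45.5% ± 16.8 in combination samples (n = 3).

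Ltc4s, the enzyme that commits leukotriene A4 to the cysteinyl leukotrienes, went the opposite way to Ptgs2. It was 85.0, 74.0, 85.4 and 101 RPKM in vehicle, 107, 68.6, 51.5 and 68.2 in 7aaRGD, 20.3, 40.9 and 41.9 in anti-PD-1 and 21.3, 21.7 and 20.1 in combination samples. Every sample of the 2 groups given anti-PD-1 was below every sample of the other 2 groups. The log2 fold change from vehicle was -1.37 ± 0.24 with anti-PD-1 (limma adjusted p = 0.00197) and -1.98 ± 0.24 with the combination (adjusted p = 4.19e-05). With 7aaRGD alone the groups overlapped (-0.26 ± 0.23, adjusted p = 0.610). Between combination and anti-PD-1 the samples overlapped too, and the difference did not pass (-0.61 ± 0.26, adjusted p = 0.290). Ltc4s was the only 1 of 9 tested members called for anti-PD-1 against vehicle, where 23.1% of genes were called (10.8% higher and 12.2% lower) and 32.4% did not overlap. Without anti-PD-1 sample 1 Tbxas1 was called too (0.57, adjusted p = 0.0093), and without anti-PD-1 sample 3 so were Ptges3 (0.42, adjusted p = 0.0340) and Ptgs2 (1.45, adjusted p = 0.0102).

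**Figure D3:**
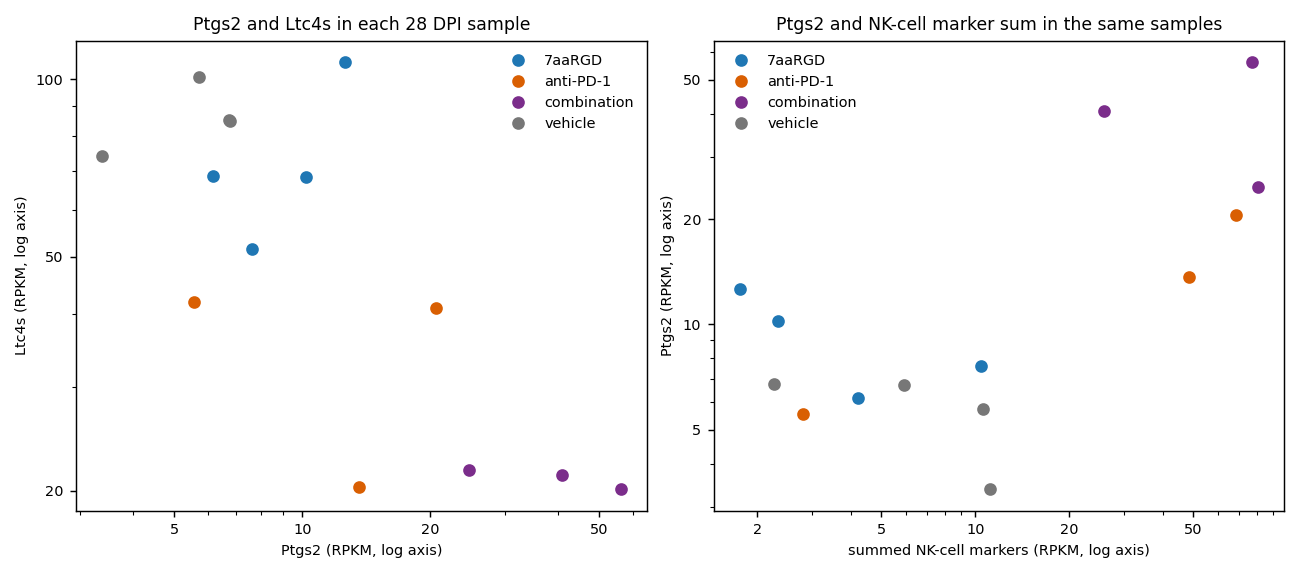
Left, Ptgs2 (horizontal) against Ltc4s (vertical) in each of the 14 samples at 28 DPI, in RPKM on log axes, coloured by group; right, the summed RPKM of 6 NK-cell markers (horizontal) against Ptgs2 (vertical) in the same samples. The combination samples combine Ptgs2 of at least 24.6 RPKM with Ltc4s of at most 21.7, and 1 anti-PD-1 sample has both Ptgs2 (5.55) and the NK-marker sum (2.80) at vehicle level. The Ltc4s of that sample (41.9) lies below the vehicle samples.

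Hpgds, which makes prostaglandin D2, was lower in the combination group, and Ptges3 and Tbxas1 were slightly higher there than with vehicle. Hpgds was 24.3, 23.9, 25.2 and 25.5 RPKM in vehicle, 25.8, 29.8, 23.9 and 27.4 in 7aaRGD, 21.2, 20.2 and 26.4 in anti-PD-1 and 19.8, 18.3 and 15.9 in combination samples. All 3 combination samples were below every other sample (log2 fold change from vehicle -0.44 ± 0.10, limma adjusted p = 0.00306; from 7aaRGD -0.54 ± 0.10, adjusted p = 0.00114). Against anti-PD-1 it did not pass (-0.31 ± 0.11, adjusted p = 0.198).

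Ptges3 rose against vehicle from a mean of 20.3 to 26.7 RPKM (0.38 ± 0.12, limma adjusted p = 0.0225), and Tbxas1 from 15.5 to 21.8 (0.46 ± 0.16, adjusted p = 0.0329). Both calls were weak. With anti-PD-1 alone the means were 25.2 RPKM for Ptges3 and 20.2 for Tbxas1, and the samples overlapped those of the combination. With 7aaRGD alone they were 22.0 and 18.1. The Ptges3 call was lost without vehicle sample 2 (adjusted p = 0.0645) or combination sample 2 (adjusted p = 0.102), and the Tbxas1 call in 5 of the 7 fits that left out 1 sample and with the replicate number as a block (adjusted p = 0.0815). In all, 3 of 9 tested members were higher and 2 lower in combination against vehicle, where 43.3% of genes were called (17.5% higher and 25.7% lower) and 48.8% did not overlap. Against 7aaRGD 1 of 9 was higher and 4 were lower, where 36.6% of genes were called (13.0% higher and 23.5% lower) and 40.4% did not overlap. The shares of calls that were higher, 40.5% and 35.6% of all genes called, became 50.9% and 51.0% with median-of-ratios scaling.

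Hpgd was 14.2, 8.68, 12.04 and 4.75 RPKM in vehicle, 24.9, 8.52, 7.25 and 17.5 in 7aaRGD, 10.9, 14.8 and 9.44 in anti-PD-1 and 17.4, 21.7 and 15.6 in combination samples. The combination samples were all above the vehicle samples, and the difference missed the threshold (0.90 ± 0.38, limma adjusted p = 0.0715). It passed when only these groups were fitted (adjusted p = 0.0339) and without vehicle sample 1 (adjusted p = 0.0446). Alox5 was 4.33, 7.44, 5.35 and 4.02 RPKM in vehicle, 13.1, 3.59, 6.97 and 14.9 in 7aaRGD, 2.35, 4.81 and 8.31 in anti-PD-1 and 3.74, 3.36 and 3.17 in combination samples. Against 7aaRGD, the combination group was called lower for Alox5 (-1.11 ± 0.39, adjusted p = 0.0404) and for its partner Alox5ap (-0.28 ± 0.10, adjusted p = 0.0344), both with overlapping samples. Without 7aaRGD sample 1, combination sample 1 or combination sample 3 both calls were lost, as they were with median-of-ratios scaling (adjusted p = 0.0525 and 0.0974) and with the replicate number as a block (adjusted p = 0.105 and 0.0924). The Alox5 call was lost as well without 7aaRGD sample 4 (adjusted p = 0.109) or combination sample 2 (adjusted p = 0.0886). Alox5ap otherwise moved little, between 135 and 204 RPKM over the 14 samples.

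Levels of other cell types differed between these groups. The sum of 6 NK-cell markers was 2.26 to 11.2 RPKM in vehicle, 1.76 to 10.5 in 7aaRGD, 48.5, 68.7 and 2.80 in anti-PD-1 and 25.9, 81.0 and 77.2 in combination samples. The sum of 7 dendritic-cell markers was 1.69 to 3.97 RPKM in vehicle and 14.1 to 17.5 in combination samples, with Xcr1 under 0.1 RPKM by mean in both groups. The 8 monocyte and macrophage markers summed to 419 to 865 RPKM in vehicle and 652 to 1442 in combination samples, where 5 were called higher and 1 lower. The 8 microglia markers summed to 1333 to 1929 RPKM in vehicle and 1951 to 2110 in combination samples, and 5 of them were called higher. Per 1000 RPKM of summed microglia markers, Ltc4s was 59.4 ± 15.6 RPKM in vehicle and 38.2 ± 15.7 in 7aaRGD samples (SD). It was 19.3 ± 5.70 in anti-PD-1 and 10.3 ± 0.73 in combination samples. Markers of mast cells and basophils summed to 0.242 to 1.29 RPKM in vehicle and 3.29 to 4.36 in combination samples, with Cpa3, Fcer1a, Tpsab1 and Ms4a2 under 0.1 RPKM by mean in both groups. In anti-PD-1 samples the dendritic-cell markers summed to 4.45 to 18.4 RPKM (both of the markers tested were called higher than in vehicle), the monocyte and macrophage markers to 513 to 1511 (5 of 8 called higher), the microglia markers to 1480 to 2193 (1 of 8 called higher) and the mast-cell and basophil markers to 1.77 to 3.501. The sums of 8 neutrophil markers overlapped between the groups. They were 216 to 415 RPKM in vehicle, 122 to 369 in 7aaRGD, 265 to 405 in anti-PD-1 and 198 to 334 in combination samples. The part of these cell types in the differences was not tested. The anti-PD-1 sample with the NK-marker sum of 2.80 was the one with Ptgs2 at 5.55 RPKM, and it is the sample without which Ptgs2 passed the threshold for anti-PD-1 against vehicle. It was also lowest of its group for dendritic-cell markers (4.45) and for the sum of 8 T-cell markers (1.68). That T-cell sum was 1.64 to 2.94 in vehicle and 4.58 to 8.27 in combination samples. In other measures the same anti-PD-1 sample was outside the vehicle range. Its Ltc4s (41.9 RPKM) was below the vehicle samples, and its monocyte and macrophage (1391) and microglia (2193) sums were above them. Among combination samples the order differed: the lowest NK-marker sum (25.9) came with Ptgs2 at 40.8 and the highest (81.0) with 24.6.

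The 7aaRGD peptide was compared with vehicle in all 3 experiments and with 7aaRAE in 2 of them, at the same day and by the same route. No member passed the threshold in any of these comparisons. At 21 DPI in GL261 tumors the share of all 9444 genes called was 0.148% for 7aaRGD against vehicle, 0% (0 genes) for 7aaRAE against vehicle and 0% for 7aaRGD against 7aaRAE, with 601 and 521 genes at an unadjusted p under 0.05 in the last 2. At 28 DPI 0.647% of genes were called for 7aaRGD against vehicle.

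Hpgd came nearest. It was 24.1, 22.2 and 26.9 RPKM with 7aaRGD, 14.4, 10.04 and 17.1 with vehicle and 20.1, 14.3 and 18.3 with 7aaRAE at 21 DPI. All 7aaRGD samples were above all others (1.76-fold against vehicle, log2 fold change 0.80 ± 0.18, limma adjusted p = 0.146), and 17.6% of all genes also did not overlap between 7aaRGD and vehicle. Without vehicle sample 3 its adjusted p was 0.0391. The first 7aaRGD sample stood apart from the other samples of its table (6.58% of rows with signal at values below 0 RPKM against 12.1% to 14.6%), and without it the difference was 0.80 ± 0.21 (adjusted p = 0.484). Against 7aaRAE the difference was 0.46 with a 95% interval from 0.06 to 0.86 (adjusted p = 0.857), and 11.4% of genes did not overlap between the peptides. The summed microglia markers were also higher with 7aaRGD (1763 to 2321 RPKM) than with vehicle (1185 to 1720), as were the dendritic-cell markers (84.5 to 98.2 against 67.9 to 75.4) and 8 T-cell markers (7.28 to 14.9 against 1.47 to 6.98). The monocyte and macrophage markers were lower (1530 to 1855 against 1877 to 3587), and the NK-cell markers overlapped (24.7 to 53.8 against 11.3 to 25.9). The part of these cells was not tested. Per 1000 RPKM of summed microglia markers, Hpgd was 12.2 ± 0.54 with 7aaRGD, 9.0 ± 0.98 with vehicle and 10.03 ± 0.99 with 7aaRAE.

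Ptgs2 was 46.7, 52.5 and 22.0 RPKM with 7aaRGD, 25.0, 30.1 and 37.0 with vehicle and 39.0, 66.9 and 41.8 with 7aaRAE at 21 DPI. Only the 7aaRAE samples were all above the vehicle samples (0.64 ± 0.31, limma adjusted p = 0.718), as was true in one or the other direction of 12.6% of genes. The interval of the difference between 7aaRGD and 7aaRAE was wide, from -1.04 to 0.38. Besides Hpgd and Ptgs2, the difference between the 2 peptides lay between -0.08 and 0.31 on the log2 scale, and only the interval of Hpgd lay apart from 0. Alox5ap had the narrowest interval, from -0.21 to 0.29. Against vehicle, Tbxas1 was lower with 7aaRGD, with overlap (-0.34 ± 0.13, limma adjusted p = 0.296). With 7aaRAE Tbxas1 was lower without overlap (-0.28 ± 0.13, adjusted p = 0.718). Ptges3 was higher with 7aaRGD than with vehicle without overlap (0.26 ± 0.12, adjusted p = 0.384). Between 7aaRGD and vehicle 17.6% of genes did not overlap.

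In U87-MG tumors Ptgs1, Ltc4s, Hpgds and Alox5 were higher and Ptgs2 was lower than in GL261 tumors at 21 DPI. Since the tables were normalized separately and strain and tumor line differ, values are given side by side with no test. In the vehicle groups at 21 DPI, Ptgs1 was 188 ± 23.2 RPKM in U87-MG and 60.4 ± 8.07 in GL261 tumors, Ltc4s 116 ± 9.32 and 18.3 ± 5.12, Hpgds 32.5 ± 1.25 and 7.00 ± 1.17, and Alox5 19.3 ± 2.11 and 2.18 ± 0.76 (SD, n = 3 each). Ptgs2 was 3.62 ± 1.23 and 30.7 ± 6.04. Hpgd, Alox5ap and Ptges3 were closer between the tumors. Hpgd was 12.2 ± 1.95 RPKM in U87-MG and 13.9 ± 3.59 in GL261 tumors, beside 229 ± 12.2 in naive C57BL/6 brain, Alox5ap was 195 ± 9.11 and 205 ± 21.4, and Ptges3 was 24.4 ± 2.87 and 29.7 ± 1.73. The summed microglia markers were 7307 to 9058 RPKM in the U87-MG vehicle group, between the naive and the GL261 vehicle samples. In the vehicle group at 28 DPI, which the study describes as GL261 tumors, Ptgs1 was 109 ± 13.5 RPKM and Ltc4s 86.3 ± 11.1. Hpgds was 24.7 ± 0.72, Alox5 5.29 ± 1.54 and Ptgs2 5.65 ± 1.59 there (SD, n = 4). Each of these means lay between those of both vehicle groups at 21 DPI. The 28 DPI group also differed from them in day, pooling and the IgG given. The part of the tumor line in these values was not tested.

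In the U87-MG table the third column of each group stood apart, with 7.41% to 8.85% of the rows with signal at values below 0 RPKM against 15.9% to 18.0% in the others. No member was called for 7aaRGD or 7aaRAE there, with or without these columns or with a batch term for them, both chosen after seeing the data. Of 9668 genes, 0 were called for 7aaRGD against vehicle (365 at an unadjusted p under 0.05) and 1 for 7aaRAE against vehicle (0.0103%, 746 at an unadjusted p under 0.05). Between the peptides 0 were called (327 at an unadjusted p under 0.05). Alox5 was 24.9, 27.2 and 27.1 RPKM with 7aaRAE, 20.6, 16.8 and 20.4 with vehicle and 22.4, 20.0 and 18.3 with 7aaRGD. All 7aaRAE samples were above the others (against vehicle 0.44 ± 0.10, limma adjusted p = 0.328, with 16.5% of genes not overlapping), and 7aaRGD minus 7aaRAE was -0.37 with an interval from -0.61 to -0.14 (adjusted p = 1.00, with 6.46% of genes not overlapping). Ptgs2 was 4.01, 4.08 and 9.68 with 7aaRGD and 3.43, 2.49 and 4.93 with vehicle, and the highest value came from the column that stood apart. Hpgd ranged widely, from 4.49 to 26.8 RPKM over the 9 samples.

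Genes beyond the 10 enzymes were taken from 4 lists of the same pathway, 51 genes in all, of which 26 passed the filter for naive against vehicle and 27 at 28 DPI. In naive against vehicle, 8 were higher and 11 lower in naive, where 82.8% of all genes tested were called (48.2% higher and 34.6% lower). Among the phospholipases, Pla2g7, which degrades platelet-activating factor, was 5.04 RPKM in naive and 267 in vehicle samples (log2 fold change -5.48 ± 0.07, limma adjusted p = 2.67e-09), and the lysosomal Pla2g15 was 319 and 87.6 (1.86 ± 0.10). Pla2g4a, the cytosolic phospholipase that releases arachidonic acid, did not pass. Cyp4f18, which oxidizes leukotriene B4, was 3.78 and 225 RPKM (-5.57 ± 0.07). Of the synthases, Mgst1 was lower (0.933 and 36.8) and Ggt5, which processes leukotriene C4, higher in naive samples (13.95 and 1.85), and Lta4h, which makes leukotriene B4 from leukotriene A4, did not pass (9.55 and 8.94 RPKM). The prostaglandin E2 receptors Ptger2 and Ptger4, the prostacyclin receptor Ptgir and the leukotriene B4 receptor Ltb4r1 were all lower in naive samples, and the cysteinyl leukotriene receptor Cysltr1 was higher (18.5 and 9.90). Of the 16 receptors, 5 passed the filter.

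With the combination at 28 DPI, 6 of the 27 tested genes were higher and 7 lower than with vehicle, beside 17.5% and 25.7% of all genes. Pla2g7 fell from 540 to 247 RPKM (-1.13 ± 0.15, limma adjusted p = 8.37e-05) and Cyp4f18 from 285 to 158 (-0.86 ± 0.12, adjusted p = 0.000144), while Pla2g15 rose from 78.7 to 126. Gpx4, a glutathione peroxidase that reduces lipid hydroperoxides, fell from 71.5 to 53.5. Among the receptors, Ltb4r1 (5.38 to 11.2 RPKM), Ptger4 (4.57 to 7.42) and Cysltr1 (4.92 to 7.48) rose. The transporters Abcc1, which exports leukotriene C4, and Abcc4, which exports prostaglandins, also rose (4.96 to 6.69 and 3.51 to 5.42). With anti-PD-1 alone 3 were higher and 4 lower, beside 10.8% and 12.2% of all genes. With 7aaRGD alone at 28 DPI, either peptide at 21 DPI or either peptide in U87-MG tumors 0 were called. The median log2 fold change of the tested pathway genes was -0.11 for combination against vehicle, beside -0.05 over all genes.

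**Figure D4:**
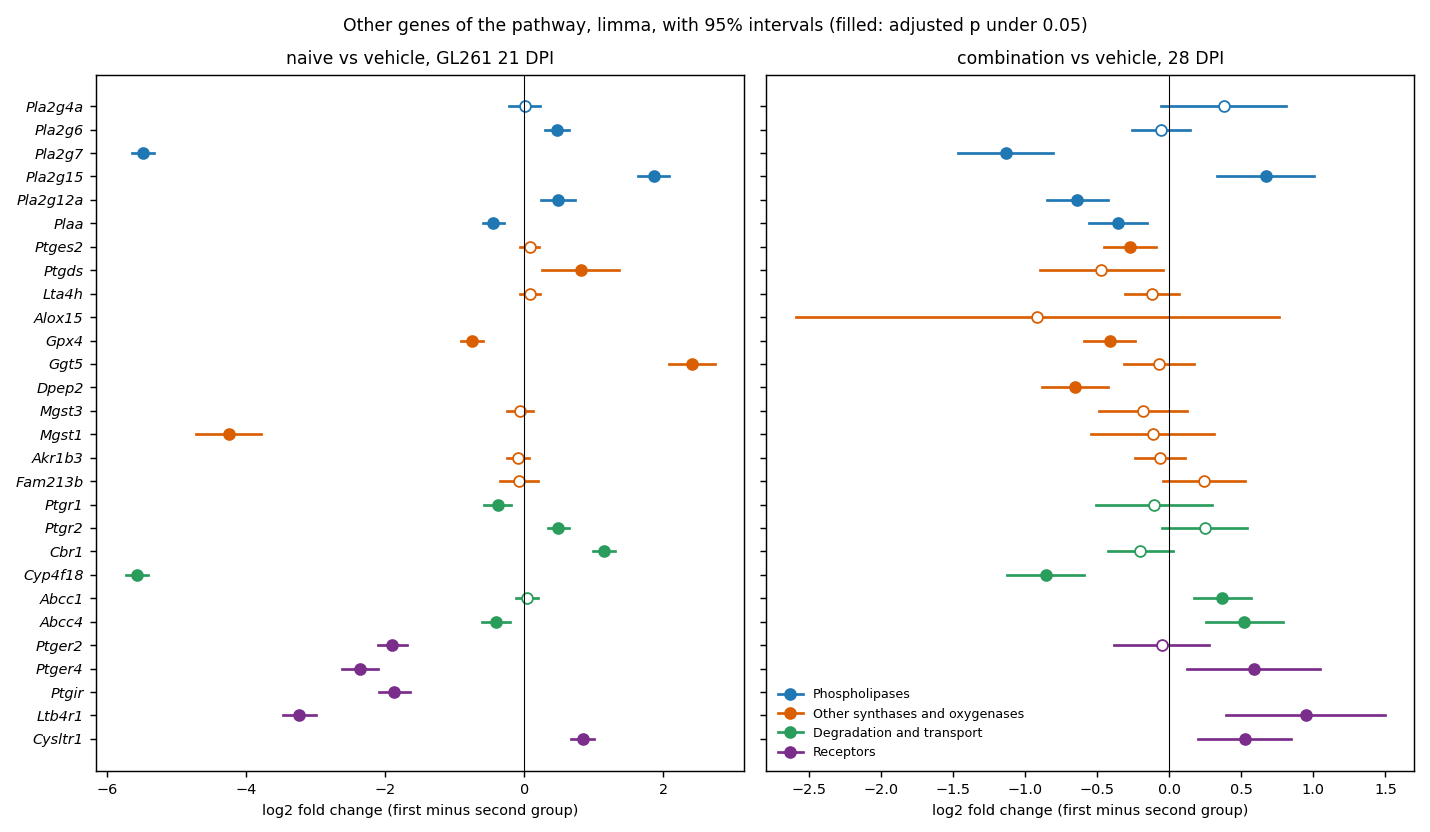
Log2 fold change (first minus second group, horizontal axis, with a scale of its own in each panel) with 95% interval of the other pathway genes that passed the filter, coloured by role; filled points passed an adjusted p of 0.05. Left, naive against vehicle at 21 DPI, with Pla2g7 and Cyp4f18 farthest below 0; right, combination against vehicle at 28 DPI, where the same 2 genes are also below 0 and Ltb4r1 is farthest above 0.

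The genes whose levels followed each member most closely were found among 9073 genes above 1 RPKM in every table, by the mean of the Pearson correlations within the 3 tables (12, 14 and 9 samples). These correlations share the libraries, the tissue and, in the first table, the naive samples, and are given as descriptions. Ptgs2 was followed by Clec4d (mean r = 0.88), Anxa2 (0.84) and S100a10 (0.84). Ltc4s was followed by Tex261, Slc29a1 and Khk (0.93, 0.92 and 0.91), and Alox5 by Afap1l1, St5 and Sort1 (0.95, 0.93 and 0.90). The closest gene to Hpgd was Cysltr1, a receptor of the same pathway (0.85). The closest genes were Agpat3 for Ptgs1 (0.90), Slc17a9 for Hpgds (0.88), Mpi for Tbxas1 (0.93), Man2a1 for Alox5ap (0.81) and Nfyb for Ptges3 (0.81).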

How the data were processed

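RNA of sorted CD11b+ cells was sequenced from strand-specific poly-A libraries. The authors used Trimmomatic, STAR and HTSeq 0.11.1 with mm10, per the labels, and deposited 1 table per experiment of normalized values named counts. The values are RPKM plus a constant: rows without signal hold exactly 2, which was subtracted, and RPKM times exonic length has an almost constant sum per sample. Some values lie under the constant, and differences between replicates lack 1 dimension on log2(RPKM + 1) at 21 DPI (GL261, all groups) and 28 DPI, so the authors altered values after normalization in a way not given in the sources used here. No counts could be recovered, depth is unknown and no counting interval is given.

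Symbols were matched to GENCODE vM21 (98.9% of 54513 rows). Tests used limma 3.58.1 in R 4.3.3 (lmFit, eBayes with trend) on log2(RPKM + 1), for each protein-coding gene whose mean reached 1 RPKM, threshold 0.05. The 3 tumor-bearing groups at 21 DPI were fitted together, naive against vehicle alone, and all groups at 28 DPI and in U87-MG together. The fits were tested on simulated data with independent noise in each sample. The simulated data lack the alteration of the deposited values, so they cannot show how the fits behave under it. Alternatives were other pseudocounts, filters, scaling, gene sets, fitted groups, a replicate block and leaving out each sample. Named genes are the 10 members, pathway genes past the threshold or among the highest of their role, and the 3 genes most like a member. Members and lists were chosen with earlier results of these data known. Deviations of same-numbered samples from their group means correlated at -0.77 to 0.12 in tumor-bearing groups at 21 DPI and -0.50 to 0.37 at 28 DPI. The samples were treated as unpaired. Because the values were altered after normalization in an unknown way, this check cannot exclude pairing. The labels call the samples biological replicates and give no litter. The p-values set group differences against the spread between these samples, which were pools of 2 animals at 21 DPI and single animals at 28 DPI. As the values were altered after normalization, this spread may differ from that before the alteration, and the p-values carry the same limit.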

Additional observations from a re-analysis of the deposited data

Results flagged for a closer look

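In the 2 groups of 4 samples at 28 DPI, the 10 members were examined for a sample far from the other 3, and chance flags about 1 in 20 such groups. Of the 20 groups examined, 3 held one, where the gap to the nearest sample is given as a share of the whole range. Ptges3 in vehicle had 1 low sample (17.3 RPKM against 21.2 to 21.3, share 0.962), and this is the vehicle sample without which the Ptges3 call for combination against vehicle was lost. Ptges3 in 7aaRGD also had 1 low sample (17.8 against 22.9 to 23.7, share 0.861). Tbxas1 in 7aaRGD had 1 high sample (22.6 against 16.2 to 17.0, share 0.886). These are 3 different animals, and no cause was tested.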

How the results depend on the processing

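The directions of the calls of Ptgs2, Ltc4s and Hpgds for combination against vehicle and against 7aaRGD, and of Ltc4s for anti-PD-1 against vehicle, held in all 16 alternatives of each, all past the threshold. The log2 fold change ranged from 2.05 to 2.91 for Ptgs2 and from -2.05 to -1.80 for Ltc4s in combination against vehicle. For combination against 7aaRGD, the number of members called fell from 5 to 3 with no filter on low values (Alox5 and Alox5ap lost). For naive against vehicle, leaving out 1 sample gave 7 to 8 members. The same range was 0 to 1 for 7aaRGD against vehicle at 21 DPI, 1 to 3 for anti-PD-1 against vehicle, 3 to 5 for combination against vehicle and 3 to 6 for combination against 7aaRGD. It was 0 in the other comparisons. The cause of these changes was not tested, beyond the smaller number of samples. Over all genes, leaving out 1 sample gave 0 to 125 calls for 7aaRGD against vehicle at 21 DPI (14 with all samples), and 0 to 1 at 28 DPI (63 with all samples), so the counts there depend on single samples. Filters, pseudocounts, the block, the groups fitted and 1 residual degree of freedom less moved these 2 counts to between 0 and 37 and to as low as 0, and the 4 genes for combination against anti-PD-1 to between 0 and 20, while a minimum of 5 RPKM lowered naive against vehicle from 8062 to 5289. In the U87-MG comparisons and between the peptides at 21 DPI the number of genes called stayed between 0 and 32.

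The replicate number as a block left 3 members for combination against 7aaRGD and changed no other count of members by over 1.5 times; same-numbered samples correlated above 0.1 in 1 of 9 pairs at 21 DPI, 0 of 3 for naive and vehicle and 3 of 19 at 28 DPI. No paired analysis was possible for U87-MG because its columns carry no replicate numbers. With 1 residual degree of freedom less, chosen after seeing the data, the Alox5 call against 7aaRGD was lost (adjusted p = 0.0528).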
